A study of Mus musculus with 6 samples.

Results

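The oxidant-producing enzymes of mouse colon were examined through 9 listed genes: the inducible nitric oxide synthase Nos2, the epithelial NADPH oxidases Nox1 and Duox2 with the maturation factor Duoxa2, the phagocyte NADPH oxidase genes Cybb, Cyba, Ncf1 and Ncf4, and the peroxidase Lpo. All probe sets that the annotation of the array assigns to 1 of these symbols were taken, which gave 11 of 45101 probe sets for 7 of the 9 genes, out of 18194 genes with a probe set. No probe set carried the symbol Nox1 or Duox2, so neither oxidase has a value here. The epithelial side is therefore described through Duoxa2 and through Noxo1, the organiser subunit of Nox1, which is not a member. Gene positions are those of RefSeq for GRCm38.p6.

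The samples were colon of C57BL/6 mice aged 6 to 8 weeks, harvested 24 h after ethanol had been injected rectally into every group. The groups were wild type (WT), GPR41 KO, which lacks the short-chain fatty acid receptor encoded by Ffar3, and GPR43 KO, which lacks the one encoded by Ffar2, with 2 Affymetrix arrays each. Colon without ethanol was not analysed here, and the sources used here do not give the deleted parts of the alleles or say whether arrays that share a group came from different mice. P-values thus reflect the spread of these samples alone, which may be technical. With 2 arrays in each group the smallest two-sided p of an exact permutation test is 0.333, so tests rest on limma, a linear model fitted to all genes at once.

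NADPH oxidases pass electrons across a membrane to oxygen and so make superoxide or hydrogen peroxide. In phagocytes the catalytic subunit encoded by Cybb sits with the Cyba product in the membrane and is silent until cytosolic subunits, among them those encoded by Ncf1 and Ncf4, and the GTPase Rac2 join it. In colon epithelium Nox1 works with the Cyba product and its own organiser Noxo1, and Duox2 reaches the cell surface only with Duoxa2. Nos2 makes nitric oxide from arginine, the substrate that arginases also use, and peroxidases such as Lpo use hydrogen peroxide to oxidise halides or thiocyanate.

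Values are MAS5 signals, the authors' linear brightness summary for a probe set, with array medians from 80.9 to 96.8. Of the 7 member genes with a probe set, 6 lay above the filter on weak genes (mean log2 signal above the 40th percentile) and were tested, and Nos2 lay below it. Of the targets, only Ffar2, that of GPR43 KO, was checked, and Ffar3, that of GPR41 KO, was not. Ffar2 was at 1194 and 1118 in WT and at 1857 and 1933 in GPR41 KO. It was at 1598 in the GPR43 KO library labelled replicate 1 and at 189.0 in GPR43 KO replicate 2, so that 1 library did not show a low target. Fold changes of the tested members in GPR43 KO, at the probe set that stands for each gene, are therefore also given without the library labelled replicate 1. Fits without it keep 1 GPR43 KO array and take their spread from the other groups. Adjusted p and calls from these fits are thus descriptions only. The same holds for fits that leave out any other array, WT included, since they also keep 1 array in a group. Colon epithelium markers were strong in all groups, with all 10 of 10 above the filter.

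Promoter sequences were available for 7 of the 9 genes as windows from 250 bases before to 50 bases after 1 annotated start per gene, from RefSeq for GRCm38.p6. The start used for Cybb lies 18442 bases inside the span annotated for that gene, that for Nox1 25857 bases and that for Duox2 513 bases inside, so these windows do not stand at the outer end of the gene. Those of Ncf1 and Cybb, whose signals lay lower in both KO groups, and of Duoxa2, whose signal overlapped between groups, are shown 5′ to 3′ on the gene's strand. Capitals mark the letters GAGGAA, the core bound by the myeloid factor PU.1, or TATAAA, the core of a TATA box, on either strand. The windows lie at chr5:134229576-134229875 on the reverse strand (Ncf1), chrX:9469275-9469574 on the reverse strand (Cybb) and chr2:122298650-122298949 on the forward strand (Duoxa2).
Ncf1: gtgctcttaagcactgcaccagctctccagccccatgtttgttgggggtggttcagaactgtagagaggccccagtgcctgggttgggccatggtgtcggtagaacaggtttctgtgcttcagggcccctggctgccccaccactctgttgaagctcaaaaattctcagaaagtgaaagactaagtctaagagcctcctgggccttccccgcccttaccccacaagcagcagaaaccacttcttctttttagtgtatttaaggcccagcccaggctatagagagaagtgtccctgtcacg
Cybb: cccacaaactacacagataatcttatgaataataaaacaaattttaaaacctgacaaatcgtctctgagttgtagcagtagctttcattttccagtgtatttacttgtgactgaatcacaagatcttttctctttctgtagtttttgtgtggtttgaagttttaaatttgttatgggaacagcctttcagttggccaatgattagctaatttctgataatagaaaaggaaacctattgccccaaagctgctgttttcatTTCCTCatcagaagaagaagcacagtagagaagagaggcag
Duoxa2: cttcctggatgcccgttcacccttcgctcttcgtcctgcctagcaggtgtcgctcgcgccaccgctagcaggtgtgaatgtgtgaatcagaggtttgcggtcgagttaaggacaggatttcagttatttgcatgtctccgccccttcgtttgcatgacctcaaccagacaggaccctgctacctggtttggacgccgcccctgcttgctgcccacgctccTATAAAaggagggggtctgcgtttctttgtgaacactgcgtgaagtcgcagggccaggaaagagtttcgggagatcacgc
The Cybb window held GAGGAA once, read on the opposite strand as TTCCTC, at bases 260 to 265 of the window, and the Ncf1 window held neither motif. GAGGAA was found in 2 of the 7 windows, those of Cybb and Nox1, and in 28.3% of the 32817 windows of this length. TATAAA was found at bases 221 to 226 of the Duoxa2 window, the 1 of the 7 that held it, and in 13.6% of all windows. The starts used for Duox2 and Duoxa2 point away from each other and lie 673 bases apart on chromosome 2, and 513 of these bases fall within the annotated span of Duox2.

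Ncf1, Ncf4 and Cybb fell in GPR41 KO against WT, and their partner Cyba did not pass the test. Of the 6 tested members, 3 fell in GPR41 KO (Ncf1, Ncf4 and Cybb), 0 rose and 3 did not pass, with a median log2 fold change of -1.06. Over all 10916 genes tested, 3.11% were lower and 1.85% higher, and the median was 0.00. In GPR43 KO, 2 of the 6 fell (Ncf1 and Ncf4), 0 rose and 4 did not pass, with a median of -0.88, against 2.41% of all genes lower, 1.55% higher and a median of 0.03. Without the GPR43 KO library labelled replicate 1, 2 fell (Ncf1 and Ncf4), 1 rose (Lpo) and 3 did not pass, against 1.58% of all genes lower and 0.531% higher, and the number of genes called went from 432 to 230. Both comparisons share the WT arrays, and the members were chosen with earlier results in view, so these counts describe the list and do not test it. In whole tissue, fewer cells of a type and less RNA per cell cannot be told apart.

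Ncf1, on chromosome 5 at 134220053 to 134229628, encodes the cytosolic organiser of the phagocyte oxidase. It had a signal of 1006 and 2022 in WT, 209.7 and 200.2 in GPR41 KO, and 278.8 and 252.0 in GPR43 KO. Every KO array lay below both WT arrays, and the WT arrays differed from each other by more than the KO arrays did. All 4 KO arrays lay below both WT arrays in 15.2% of the genes tested. The GPR41 KO mean was 13.6% of the WT mean, a log2 fold change of -2.70 ± 0.29 (SE of the limma fit, n = 2 per group, adjusted p = 0.00176). In GPR43 KO the mean was 17.5% of WT and the log2 fold change -2.35 ± 0.29 (limma, adjusted p = 0.00418). It was -2.42 (limma, adjusted p = 0.017) without the GPR43 KO library labelled replicate 1. Leaving out any single array did not end either call of Ncf1.

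The other probe sets of Ncf1 were lower in the KO arrays as well. The second read 650.2 and 1263 in WT, 74.72 and 93.94 in GPR41 KO, and 68.79 and 89.78 in GPR43 KO, which is 8.81% and 8.29% of the WT mean. The third read 367.6 and 673.4 in WT, 61.03 and 82.39 in GPR41 KO, and 91.83 and 154.8 in GPR43 KO. In a limma fit of every probe set above the filter, in which 2.00% and 1.56% of 20975 probe sets fell, their log2 fold changes were -3.18 (adjusted p = 0.00165) and -2.54 (0.00657) in GPR41 KO. In GPR43 KO they were -3.26 (limma, adjusted p = 0.00194) and -1.91 (0.031). All 3 probe sets of Ncf1 thus fell in both groups. In GPR41 KO the mean of the third lay below the filter of that fit, and it was tested because WT was high. The KO means of the second lay close to that filter. The calls of these further probe sets are therefore a description and not support.

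Ncf4, on chromosome 15 at 78244164 to 78262582, encodes the cytosolic subunit that binds a phagosomal lipid. Its signal was 718.5 and 971.3 in WT, 209.0 and 207.8 in the GPR41 KO arrays, 428.5 in the GPR43 KO library labelled replicate 1 and 230.1 in GPR43 KO replicate 2. The KO arrays all lay below WT, and the GPR43 KO library labelled replicate 1 was the highest of them. The log2 fold change was -1.91 ± 0.29 in GPR41 KO (limma, adjusted p = 0.00666), a call that no single left-out array ended. In GPR43 KO it was -1.36 ± 0.29 (limma, adjusted p = 0.0362), and -1.78 (0.0158) without the GPR43 KO library labelled replicate 1. That call was lost without WT replicate 2 (limma, adjusted p = 0.144), GPR41 KO replicate 1 (0.06), GPR41 KO replicate 2 (0.0587) or GPR43 KO replicate 2 (0.171, log2 fold change -0.93). It was also lost with the replicate number as a block (limma, adjusted p = 0.0666) and with no filter on weak genes (0.0601).

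Cybb, on chromosome X at 9435252 to 9487766, encodes the catalytic subunit of the phagocyte oxidase. Its strongest probe set read 736.3 and 907.3 in WT, 189.4 and 412.8 in GPR41 KO, and 341.5 and 320.4 in GPR43 KO. The KO arrays lay below WT, and the GPR41 KO arrays differed by more than the GPR43 KO arrays. In GPR41 KO the log2 fold change was -1.48 ± 0.31 (limma, adjusted p = 0.0306), lost without WT replicate 2 (0.122) or GPR41 KO replicate 1 (0.103, log2 fold change -0.96), and with no filter (0.0502). In GPR43 KO it was -1.26 ± 0.31 (limma, adjusted p = 0.0628) and did not pass, nor did it without the GPR43 KO library labelled replicate 1 (-1.30, adjusted p = 0.168). With each array centred on its median it did pass in GPR43 KO (-1.26, limma, adjusted p = 0.0116). It also passed in GPR43 KO without GPR41 KO replicate 1 (limma, adjusted p = 0.0147) or GPR41 KO replicate 2 (0.0166), fits in which the estimate is the same and the shared spread is smaller.

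The other probe sets of Cybb were weaker and lay lower in the same arrays. The second read 282.7 and 373.0 in WT, 97.5 and 158.3 in GPR41 KO, and 79.43 and 111.2 in GPR43 KO. The fit of every probe set put it at -1.26 in GPR41 KO (limma, adjusted p = 0.0769) and at -1.61 in GPR43 KO (0.0364). The third read 230.6 and 367.1 in WT, 123.2 and 147.8 in GPR41 KO, and 189.8 and 165.3 in GPR43 KO, with -1.02 (limma, adjusted p = 0.112) and -0.66 (0.296). The 3 probe sets of Cybb therefore did not give the same calls, although all KO arrays lay below both WT arrays in each, an order found in 14% of the 20975 probe sets.

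Cyba, on chromosome 8 at 122424771 to 122432940, encodes the membrane partner that the phagocyte oxidase shares with Nox1. Its signal was 6975 and 9577 in WT, 4801 and 5642 in GPR41 KO, and 5945 and 5700 in GPR43 KO. The KO arrays again lay below WT, at 63.0% and 70.3% of the WT mean. The log2 fold change was -0.65 ± 0.16 in GPR41 KO (limma, adjusted p = 0.0612) and -0.49 ± 0.16 in GPR43 KO (0.147), and neither passed. Without the GPR43 KO library labelled replicate 1 the second was -0.52 (limma, adjusted p = 0.313). Without WT replicate 1, which leaves the higher WT array alone, they were -0.88 and -0.72. With quantile normalization the first passed (-0.70, limma, adjusted p = 0.0418).

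**Figure D1:**
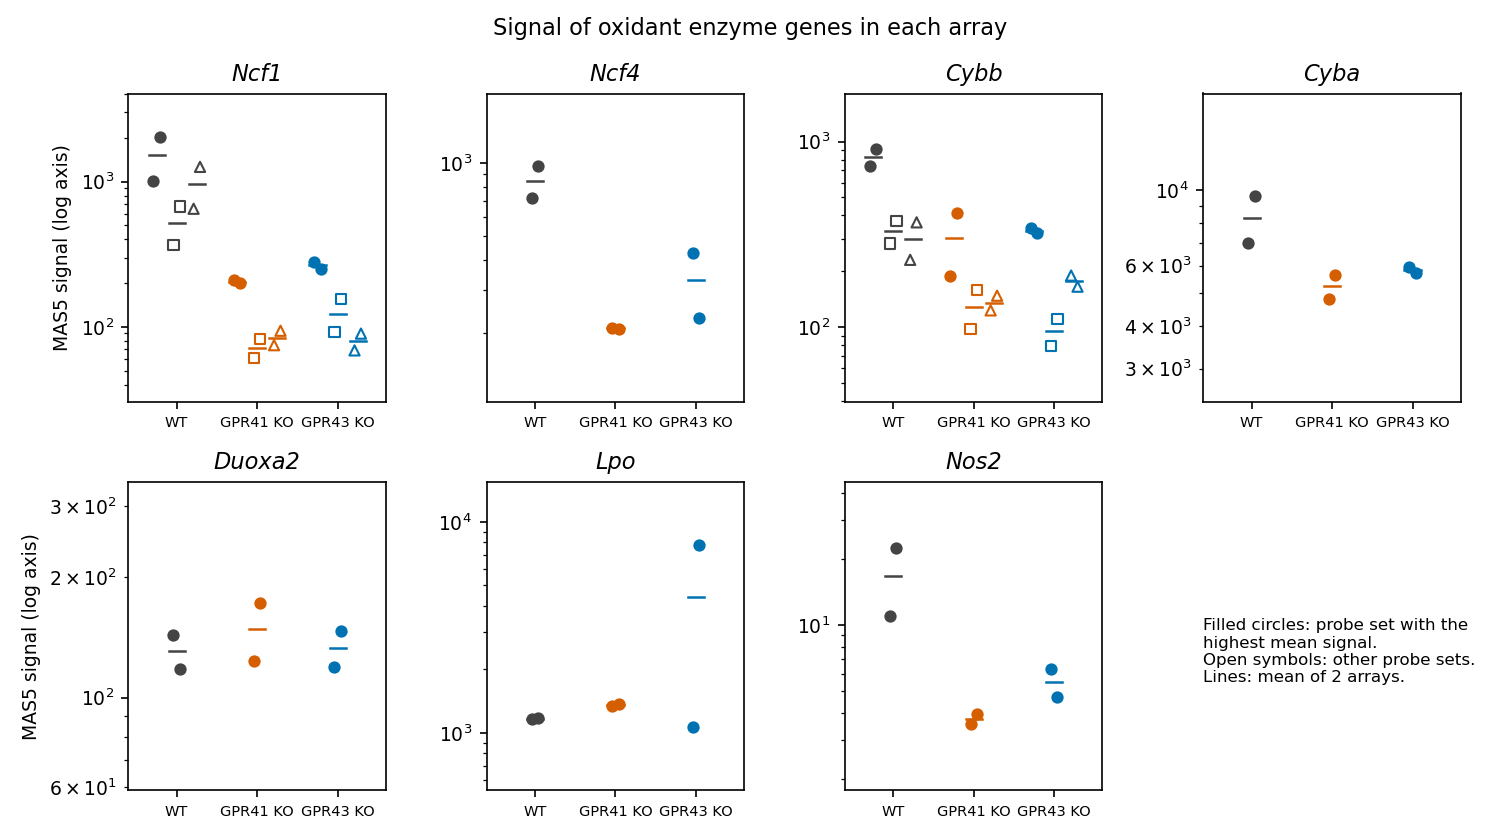
MAS5 signal (log axis, with a range of its own in each panel) of the 7 member genes with a probe set, in the 2 arrays of WT, GPR41 KO and GPR43 KO. Filled circles are the probe set with the highest mean, open symbols the other probe sets, and short lines group means. All KO points of Ncf1, Ncf4, Cybb and Cyba lie below the WT points of the same probe set, Duoxa2 overlaps, and Lpo has 1 array at 7738.

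Duoxa2, on chromosome 2 at 122298900 to 122302885, read 143.4 and 117.7 in WT, 123.5 and 172.2 in GPR41 KO, and 119.4 and 146.8 in GPR43 KO. The arrays of the 3 groups overlapped. In GPR41 KO the log2 fold change was 0.15 ± 0.30 (95% confidence interval -0.53 to 0.83, limma, adjusted p = 0.835). In GPR43 KO it was 0.02 ± 0.30 (-0.66 to 0.71, limma, adjusted p = 0.977), and 0.16 without the GPR43 KO library labelled replicate 1. These signals lay between the 53.9th and the 60.5th percentile of their arrays. The intervals are not adjusted over all genes, so changes within them, and some beyond them, could have gone uncalled.

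Noxo1, from the list of genes that work with the members, had 2978 and 3109 in WT, 2696 and 2499 in GPR41 KO, and 3551 and 2559 in GPR43 KO. Both GPR41 KO arrays lay slightly below WT, and the GPR43 KO arrays lay on either side of it. The log2 fold change was -0.23 ± 0.16 in GPR41 KO (95% confidence interval -0.59 to 0.14, limma, adjusted p = 0.488). In GPR43 KO it was -0.01 ± 0.16 (-0.38 to 0.35, limma, adjusted p = 0.977), and -0.25 without the GPR43 KO library labelled replicate 1. Duox1 and Duoxa1, the near relatives of Duox2 and Duoxa2, lay below the filter, at 6.859 to 54.89 and 6.512 to 33.51 over the 6 arrays, signals too weak for a statement on change.

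Set side by side in each array, the phagocyte members and the epithelial genes stood at different distances from the WT mean. The mean log2 difference over Cybb, Cyba, Ncf1 and Ncf4 was -1.84 and -1.53 in the GPR41 KO arrays, -1.22 in the GPR43 KO library labelled replicate 1 and -1.51 in GPR43 KO replicate 2. The WT arrays stood at -0.27 and 0.27. Without Cyba, whose product also works with Nox1, the mean was -2.20 and -1.87 in GPR41 KO replicates 1 and 2. It was -1.48 and -1.84 in GPR43 KO replicates 1 and 2, with WT at -0.29 and 0.29. The same difference was -0.06, 0.36, -0.11 and 0.16 for Duoxa2 in these 4 KO arrays, and -0.17, -0.28, 0.22 and -0.25 for Noxo1. The contrast planned between Nox1 with Duox2 and the phagocyte members could not be made, and this description over the genes that were read carries no test.

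**Figure D2:**
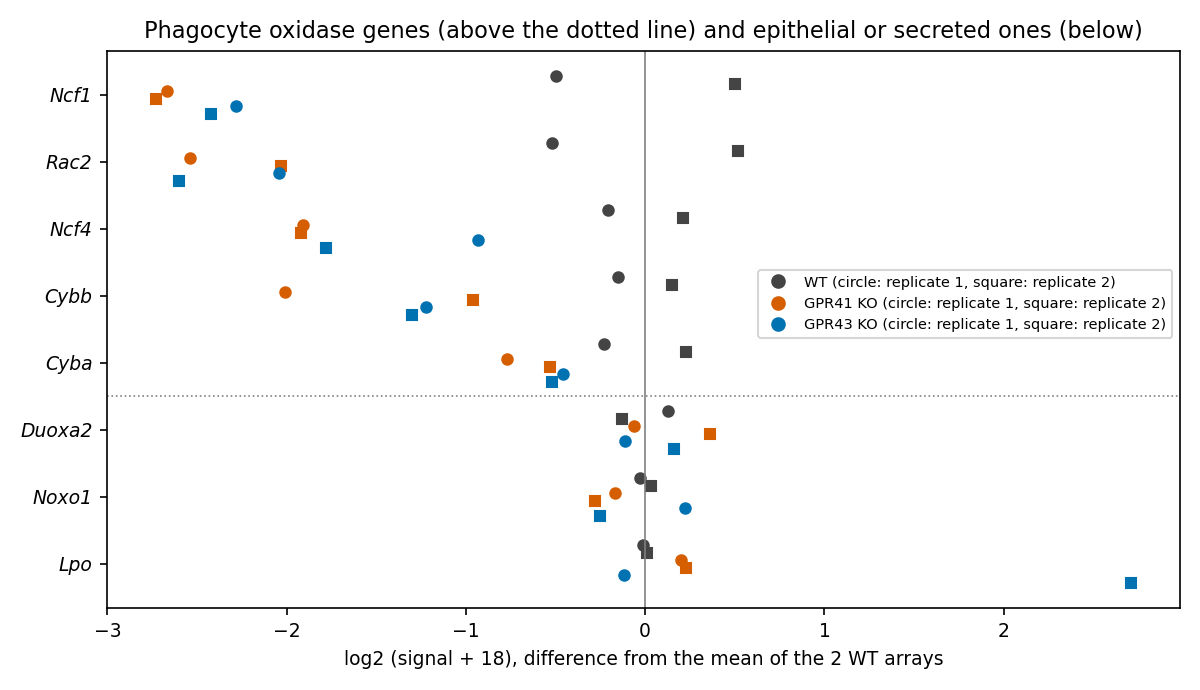
Difference of each array from the mean of both WT arrays on the log2 (signal + 18) scale, with 1 row per gene, circles for replicate 1 and squares for replicate 2. The 4 KO arrays lie left of both WT arrays for Ncf1, Rac2, Ncf4, Cybb and Cyba, and on both sides of the WT mean for Duoxa2 and Noxo1, while Lpo stands at 2.71 in GPR43 KO replicate 2.

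Lpo, on chromosome 11 at 87806428 to 87826114, encodes lactoperoxidase, a secreted enzyme. It had 1159 and 1175 in WT, 1343 and 1370 in the GPR41 KO arrays, 1070 in the GPR43 KO library labelled replicate 1 and 7738 in GPR43 KO replicate 2. The last array stood far above the other 5, which lay close together, and it is the GPR43 KO array in which Ffar2 was low. The log2 fold change was 0.21 ± 0.69 in GPR41 KO (limma, adjusted p = 0.902) and 1.29 ± 0.69 in GPR43 KO (0.339), and neither passed. The value in GPR43 KO was 2.71 (limma, adjusted p = 0.000194) without the GPR43 KO library labelled replicate 1 and -0.12 (0.805) without GPR43 KO replicate 2, fits in which a lone array is taken to have the spread of the other groups. One array thus decides this value. The other peroxidases of the list with weak signals were Mpo, the enzyme of neutrophil granules, at 3.258 to 59.45, and Epx, that of eosinophils, at 6.165 to 55.05, both below the filter.

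Nos2, on chromosome 11 at 78920787 to 78960226, had 11.0 and 22.43 in WT, 3.553 and 3.945 in GPR41 KO, and 6.335 and 4.701 in GPR43 KO. The WT arrays were the highest, but these signals lay between the 5.6th and the 22nd percentile of their arrays, around or below the value of 18 that was added before log2. No fold is given for signals this weak. With no filter, limma gave -0.65 ± 0.38 on the log2 (signal + 18) scale for GPR41 KO (adjusted p = 0.494) and -0.54 ± 0.38 for GPR43 KO (0.577). These values allow no statement on whether Nos2 differed.

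Of the 47 genes on the list of oxidase relatives, nitric oxide supply and oxidant removal, 40 had a probe set and 32 were tested. In GPR41 KO 1 rose, 3 fell and 28 did not pass, with a median log2 fold change of -0.15, and in GPR43 KO 0 rose, 3 fell and 29 did not pass, with a median of -0.14. Over all genes tested, 1.85% rose and 3.11% fell in GPR41 KO, and 1.55% rose and 2.41% fell in GPR43 KO. The genes that fell were Rac2, Arg1 and Gpx3 in each comparison, and the comparisons share the WT arrays. Without the GPR43 KO library labelled replicate 1 the 3 that fell in GPR43 KO were Rac2, Arg1 and Xdh, a purine oxidase (-1.56, limma, adjusted p = 0.0447, against -1.20 and 0.0576 with all arrays). The fold change plot shows these genes beside the members.

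Rac2, the GTPase of blood cells that completes the phagocyte oxidase, had 1918 and 3957 in WT, 457.5 and 661.8 in GPR41 KO, and 654.2 and 440.6 in GPR43 KO. The KO arrays lay below both WT arrays and overlapped with each other. The log2 fold change was -2.29 ± 0.33 in GPR41 KO (limma, adjusted p = 0.00607) and -2.32 ± 0.33 in GPR43 KO (0.00764). The first call was lost without GPR41 KO replicate 1 (limma, adjusted p = 0.0535) and the second without GPR43 KO replicate 2 (0.0574), while without the GPR43 KO library labelled replicate 1 the second was -2.60 (0.016).

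Arg1, the arginase that competes with Nos2 for arginine, had the largest fall of the tested list in both groups. Its signal was 2764 and 5627 in WT, 168.5 and 113.2 in GPR41 KO, and 295.3 and 160.5 in GPR43 KO. The groups were far apart, with a log2 fold change of -4.66 ± 0.37 in GPR41 KO (limma, adjusted p = 0.00059) and -4.07 ± 0.37 in GPR43 KO (0.00136), -4.47 (0.00166) without the GPR43 KO library labelled replicate 1. Both calls held whichever array was left out. Arg2, the mitochondrial arginase, was at -0.98 (limma, adjusted p = 0.12) and -1.16 (0.0773), and did not pass in either group, nor in GPR43 KO without the library labelled replicate 1 (-1.37, limma, adjusted p = 0.128). Without WT replicate 1, which leaves the higher WT array alone, Arg2 was at -1.44 and -1.62. With median centring it passed in GPR43 KO (limma, adjusted p = 0.0212).

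Gch1, which makes the first precursor of the cofactor of nitric oxide synthases, had log2 fold changes of -0.13 (limma, adjusted p = 0.751) and -0.34 (0.368), the second at -0.36 (0.551) without the GPR43 KO library labelled replicate 1. Nos3, the endothelial synthase, had 263.3 and 351.3 in WT, 160.1 and 137.7 in GPR41 KO, and 167.8 and 181.8 in GPR43 KO. All KO arrays of Nos3 lay below WT, but -0.95 (limma, adjusted p = 0.0716) and -0.74 (0.15) did not pass, nor did -0.69 (0.369) in GPR43 KO without the library labelled replicate 1. Maoa, a mitochondrial amine oxidase that releases hydrogen peroxide, had 14150 and 11610 in WT, 19880 and 19780 in GPR41 KO, and 19250 and 17660 in GPR43 KO. It rose in GPR41 KO, by 0.63 ± 0.14 on the log2 scale (limma, adjusted p = 0.0348), and in GPR43 KO 0.52 ± 0.14 did not pass (0.0728). The latter was 0.46 without the library labelled replicate 1. A second probe set of Maoa did not pass in the limma fit of every probe set. It was at 0.87 in GPR41 KO (limma, adjusted p = 0.0624) and at 0.28 in GPR43 KO (0.559). The GPR41 KO call of Maoa was lost without any 1 of the arrays other than WT replicate 1, with adjusted p from limma of 0.106 when WT replicate 2 was left out, of 0.194 and 0.165 for GPR41 KO replicates 1 and 2, and of 0.0667 and 0.0681 for GPR43 KO replicates 1 and 2. It was also lost with no filter (limma, adjusted p = 0.0688) and with the replicate block (0.0619). Without WT replicate 1, which leaves the lower WT array alone, the GPR43 KO value was 0.67.

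Among the genes that remove oxidants, Gpx3, the secreted glutathione peroxidase, had 4559 and 7161 in WT, 1924 and 2254 in GPR41 KO, and 2647 and 2393 in GPR43 KO. It fell by 1.45 ± 0.20 on the log2 scale in GPR41 KO (limma, adjusted p = 0.00466), whichever array was left out. In GPR43 KO it fell by 1.18 ± 0.20 (limma, adjusted p = 0.0157), a call lost without the GPR43 KO library labelled replicate 1 (0.055) or GPR43 KO replicate 2 (0.115). Sod2, the mitochondrial superoxide dismutase, had 6135 and 9825 in WT, 4590 and 4300 in GPR41 KO, and 4469 and 4593 in GPR43 KO. Its log2 fold changes of -0.80 (limma, adjusted p = 0.0556) and -0.77 (0.0672) did not pass, but the first did with quantile normalization (0.042). Without WT replicate 1, which leaves the higher WT array alone, they were -1.14 and -1.11. Without the GPR43 KO library labelled replicate 1 the second was -0.76 (limma, adjusted p = 0.217).

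**Figure D3:**
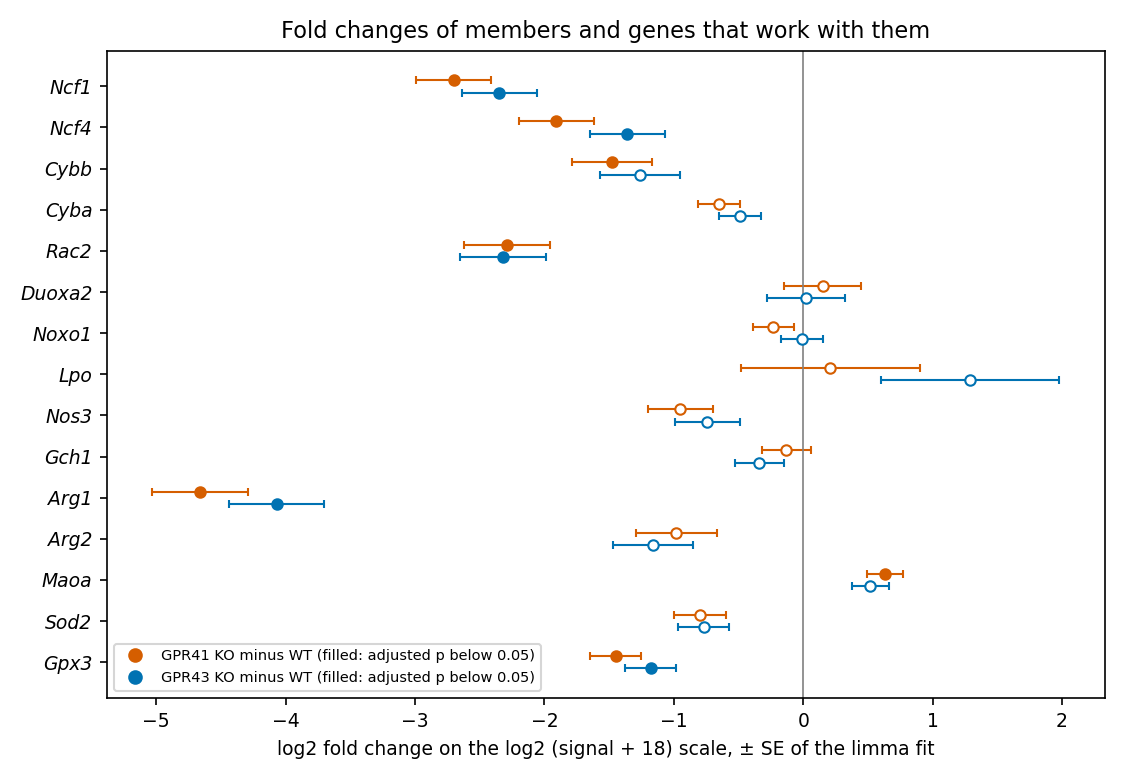
Log2 fold change of each KO group against WT with its SE from the limma fit, for the tested members and the genes that work with them. Filled points passed the adjusted threshold of 0.05. The filled points to the left are Ncf1, Ncf4, Rac2, Arg1 and Gpx3 in both groups and Cybb in GPR41 KO, and the only filled point to the right is Maoa in GPR41 KO.

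Summed signals of phagocyte markers lay lower in the KO arrays, but not every macrophage and monocyte marker fell. The summed signal of 10 neutrophil markers was 76000 to 138000 in WT, 847 to 1080 in GPR41 KO and 1090 to 3090 in GPR43 KO, and all 7 tested fell in both groups, also in GPR43 KO without the library labelled replicate 1. Of these 7, 5 (Ngp, Mmp8, Il1r2, Clec4d and Csf3r) had a mean below the filter in a KO group and were tested because WT was high, so the count is a description and not support. At the probe set that stands for its gene, no tested member had a KO group mean below the filter. The highest of the neutrophil markers was S100a9 (mean 16000 over all arrays), the lowest Camp (82.5), and none of the 10 was listed at 0. The sum of 12 macrophage and monocyte markers was 28200 to 42400 in WT, 13600 to 17100 in GPR41 KO and 18000 to 20000 in GPR43 KO. Lyz2 and Cd14, with WT means of 13800 and 9120, carried much of the WT sum. In both groups 4 of 11 tested were lower (Cd68, Itgam, Cd14 and Lyz2) and 7 were not past the threshold. Over all genes tested, 3.11% were lower in GPR41 KO and 2.41% in GPR43 KO. Of those 7, C1qa, C1qc, Mrc1 and Csf1r had log2 fold changes of -0.32, -0.33, -0.20 and -0.55 in GPR41 KO. In GPR43 KO they had -0.08, 0.00, -0.13 and -0.17. C1qb, Adgre1 and Ccr2 had -0.63, -0.91 and -1.11 in GPR41 KO, and -0.42, -0.45 and -0.75 in GPR43 KO. Without the GPR43 KO library labelled replicate 1, 2 of 11 were lower in GPR43 KO (Cd14 and Itgam), and Itgam and Ccr2 were tested with a KO group mean below the filter. The highest of these was Lyz2 (9070) and the lowest Cd163 (121). B cell markers, 4 of which were measured, overlapped between groups at 467 to 586 in WT, 450 to 728 in GPR41 KO and 481 to 826 in GPR43 KO, with Cd79b the highest (186) and Cd22 the lowest (110). Eosinophil markers summed to 80.9 to 141 in WT, 128 to 134 in GPR41 KO and 141 to 172 in GPR43 KO, with Siglecf the highest (60.3) and Ccr3 the lowest (9.3), and none of the 4 was tested. The part of these cells in the falls of Ncf1, Ncf4, Cybb and Rac2 was not tested.

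Summed signals of epithelial and of smooth muscle markers lay higher in the KO arrays than in WT. The sum of 10 colon epithelium markers, with Lgals4 the highest (59800) and Cdx1 the lowest (4090), was 201000 to 241000 in WT, 255000 to 267000 in GPR41 KO and 266000 to 290000 in GPR43 KO, with 1 of 10 higher in GPR41 KO (Vil1) and 0 in GPR43 KO. That of 6 absorptive colonocyte markers, from Car1 (49400) to Slc9a3 (3180), was 105000 to 110000 in WT, 139000 to 148000 in GPR41 KO and 145000 to 164000 in GPR43 KO. Of these, 1 rose in both groups, the water channel Aqp8, by 2.03 on the log2 scale in GPR41 KO (limma, adjusted p = 0.0145) and by 1.83 in GPR43 KO (0.0284), the latter at 2.07 (0.0583) without the library labelled replicate 1. The sum of 6 goblet cell markers, from Zg16 (62900) to Spdef (2910), was 164000 to 169000 in WT, 199000 to 214000 in GPR41 KO and 220000 to 287000 in GPR43 KO. That of 5 smooth muscle markers, from Acta2 (31100) to Myh11 (5550), was 60800 to 70900 in WT, 73800 to 85800 in GPR41 KO and 84300 to 99100 in GPR43 KO, so the higher sums were not limited to epithelium. No goblet or smooth muscle marker passed the test. Over all genes tested, 1.85% were higher in GPR41 KO and 1.55% in GPR43 KO. Squamous epithelium markers, from Sprr1a (1860) to Krt5 (45.3), overlapped at 1870 to 4860 in WT, 1070 to 2000 in GPR41 KO and 1170 to 1920 in GPR43 KO. Duoxa2 and Noxo1 overlapped between WT and GPR43 KO in these same arrays. The part of the epithelial share in their values was not tested.

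**Figure D4:**
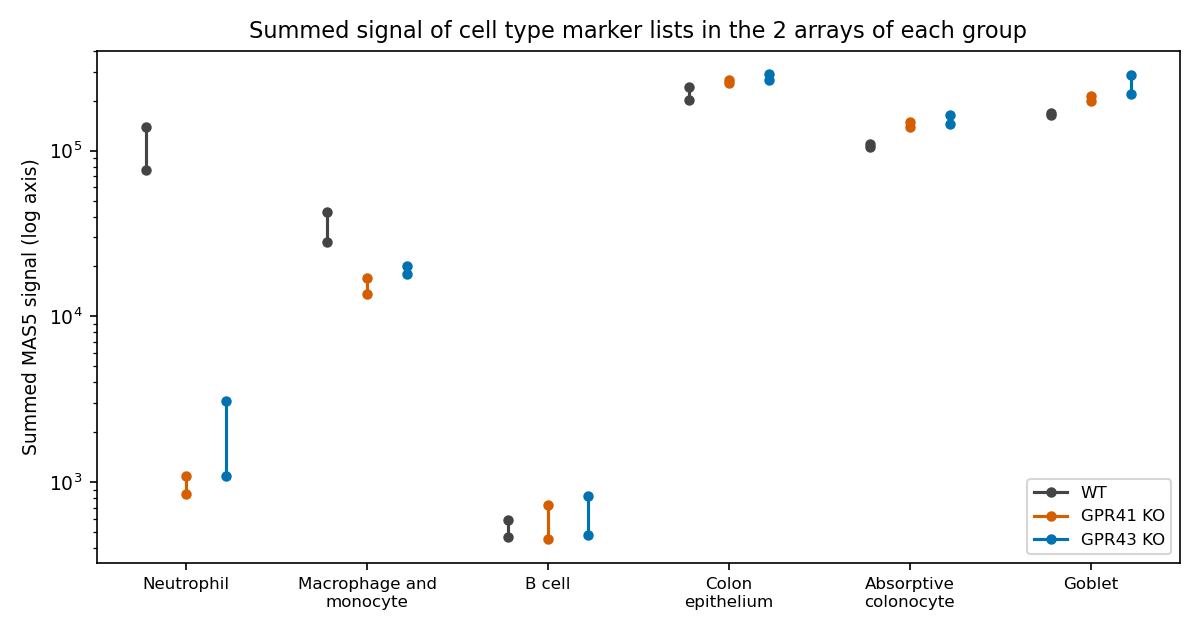
Summed MAS5 signal (log axis) of marker lists, with both arrays of a group as points joined by a line. Neutrophil markers stand at 76000 to 138000 in WT and at 847 to 3090 in the KO arrays, macrophage and monocyte markers at 28200 to 42400 and at 13600 to 20000, and the 3 epithelial lists lie slightly higher in the KO groups.

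The KO groups were also set against each other. Of the 6 tested members, 0 passed in GPR43 KO against GPR41 KO in limma, also 0 at an unadjusted p under 0.05, and 0% of all 10916 genes were called, with 596 at an unadjusted p under 0.05. The log2 difference was 0.34 for Ncf1 (95% confidence interval -0.32 to 1.01), 0.56 for Ncf4 (-0.09 to 1.21), 0.22 for Cybb (-0.49 to 0.93) and 0.16 for Cyba (-0.21 to 0.53). It was -0.12 for Duoxa2 (-0.81 to 0.56) and 1.08 for Lpo (-0.49 to 2.65). These intervals do not show that the KO groups are alike. Without the GPR43 KO library labelled replicate 1, which leaves 1 GPR43 KO array, the difference of Lpo was 2.50. Those of Ncf1, Ncf4, Cybb, Cyba and Duoxa2 were 0.28, 0.13, 0.18, 0.13 and 0.01. Without GPR43 KO replicate 2 the difference of Lpo was -0.34.

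Likeness of pattern was measured as the root mean square difference of log2 signal over the 6 arrays after each gene was centred on its mean. The genes nearest to Cybb were the epithelial mucin Muc1 (0.14), Spon1 (0.17) and Penk (0.17), the enkephalin precursor. Muc1 had 739.4 and 859.0 in WT, 214.5 and 339.5 in GPR41 KO, and 365.5 and 319.4 in GPR43 KO, with the lower of the GPR41 KO arrays the same one as for Cybb. Nearest to Nos2, whose pattern rests on signals near background, were Bnip2 (0.04), Spsb1 (0.05) and Il17ra (0.05). For Ncf1, added after its values were seen, the nearest were the eosinophil chemokine Ccl11 (0.06), the metallothionein Mt2 (0.09) and the gelatinase Mmp9 (0.11). Ccl11 had 887.1 and 1870 in WT, 187.6 and 169.8 in GPR41 KO, and 256.0 and 201.5 in GPR43 KO. For Lpo, also added later, no gene came closer than Ptprz1 (0.60), so its single high array had no near match among the genes tested.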

How the data were processed

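Each of 6 RNA samples was read on 1 Affymetrix array, and the authors deposited 1 intensity for each probe set, made with MAS5 per the submitters' processing notes, for which no version was found in the sources used here. Values are linear and already scaled: with 2% of probe sets trimmed at each end, the mean was 500.0 in every array. Detection calls were not used here.

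Probe sets with 1 symbol (34958 of 45101; 932 had several and 9211 none) were named from the array annotation and updated by Entrez identifier (34754 matched). The probe set with the highest mean log2 signal stood for a gene (18194 genes), and 10916 genes above the 40th percentile were tested, a filter that favours genes high in 1 group. Before log2, 18 was added as a pseudocount (the 20th percentile of the whole table), which understates folds of weak signals. limma 3.58.1 in R 4.3.3 fitted 1 mean per group to all 6 arrays (eBayes with trend, 3 residual degrees of freedom, 8.71 after sharing). Tests were two-sided with Benjamini-Hochberg adjustment over all genes, at 0.05. The fit was tested on simulated data.

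Members, lists and tests were chosen with earlier results of these data known. The text names all members, the listed genes past the threshold and part of the genes that work with a member, the nearest 3 patterns, and markers at the ends of each list. Further probe sets of a gene are given for members and Maoa only. Alternatives covered the pseudocount, scaling, filter, every probe set, the replicate number as a block, and leaving out each array. The number of arrays limits the precision.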

Additional observations from a re-analysis of the deposited data

How the results depend on the processing

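Leaving out 1 array at a time moved the number of genes called between 209 and 880 in GPR41 KO against WT (541 with all arrays), between 139 and 750 in GPR43 KO against WT (432) and between 0 and 3 in GPR43 KO against GPR41 KO (0). The number of members called moved between 2 and 4, between 1 and 3, and between 0 and 1. The filter at the 60th percentile, which left 2 members to test (Cyba and Lpo), gave 335 and 280 genes and 0 members in both comparisons with WT. With no filter 1 member passed in GPR43 KO, and with every probe set as a unit 1 probe set passed between the KO groups. With median centring 317 genes were higher and 339 lower in GPR41 KO, against 202 and 339, and the median of all genes moved to 0.10.

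With the replicate block 1 member passed in GPR43 KO in place of 2, and the genes called were 401 and 295 against WT. Same-numbered arrays did not deviate together (correlations across genes of 0.11, -0.27 and -0.05), so the numbers were not taken to pair the samples.

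Signs turned, the cause not tested, for values that did not pass with all arrays. Sod2 between the KO groups was -0.07 with median centring. With 1 array left out, values in GPR41 KO ranged from -0.06 to 0.36 for Duoxa2 and from -0.41 to 0.14 for Gch1. In GPR43 KO they ranged from -0.11 to 0.16 for Duoxa2, from -0.25 to 0.22 for Noxo1 and from -0.12 to 2.71 for Lpo. Between the KO groups they ranged from -0.34 to 0.09 for Duoxa2, from -0.30 to 0.75 for Cybb, from -0.02 to 0.45 for Noxo1, from -0.31 to 0.24 for Rac2, from -0.45 to 0.08 for Arg2, from -0.02 to 0.07 for Sod2 and from -0.34 to 2.50 for Lpo.

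Over the 15 genes followed in 3 comparisons, 335 of 345 values under the other settings kept their direction and side of the threshold, as did 226 of 270 with 1 array left out. Signals near background (Nos2, Duox1, Duoxa1, Mpo and Epx) allow no statement on change.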
